A study of Homo sapiens with 15 samples.

Results

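The genes described here are 33 known target genes of the transcription factor p53, taken as a list of symbols. Membership used no measured value, but the list was drawn up with earlier results of these data known. By role they comprised 8 genes of cell cycle arrest, 12 of apoptosis, 4 of DNA repair, 2 that feed back on p53, 5 of metabolism, redox balance and mitochondrial quality control, and 2 others. A probe set paired with the symbol alone was used for 31 of the 33, and BTG2 and FDXR were not analysed here. Where a gene had more than 1 such probe set, the one with the highest mean over the arrays was taken. Of these 31 genes, 30 passed the filter on dim signal and were tested among 16005 genes, out of 18377 with a probe set. ABCA12, a lipid transporter gene, was the exception: its log2 intensity lay between 4.23 and 4.90 and was at or below the 25th percentile of the array on 13 of 15 arrays.

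Gene expression was measured on Affymetrix whole-transcript arrays in A549, a cell line from a human lung adenocarcinoma. There were 15 cultures, 3 in each of 5 groups, 1 array each, and every culture contained 0.1% DMSO. The BB2-125, BB2-162 and BB2-282 groups each received 10 µM of the compound of that name, 6 h before a further 42 h in a GasPak EZ pouch that makes the culture hypoxic. The submitters describe these compounds, known here by code names, as transcriptional inhibitors. The hypoxic vehicle group went through the same times and the same hypoxia with DMSO alone. The normoxic vehicle group had DMSO alone and no hypoxia. No array came from cells given a compound in normoxia, so an effect of a compound on the response to hypoxia and an effect it would have without hypoxia cannot be told apart. The labels call the cultures biological replicates without saying how separately they were grown, so a p-value here sets a difference against the spread among these cultures, part of which may be technical. Each array pooled the RNA of a whole culture, so a lower level in every cell and expression in fewer cells cannot be told apart.

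p53 is held at a low level by the ubiquitin ligase MDM2, itself a p53 target, and is released from this control by DNA damage and other stresses. It then binds DNA and raises transcription of genes that stop the cell cycle, repair DNA, adjust metabolism or trigger cell death. A549 cells are known to lack CDKN2A, whose product ARF restrains MDM2. Most of the targets have other regulators as well, among them the stress factors of hypoxia and of the integrated stress response, so their levels are not a measure of p53 activity.

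No pair of arrays held identical values, and correlations within groups were 0.9852 or higher. VEGFA and SLC2A1, textbook targets of the hypoxia-inducible factor (HIF), rose by 3.66 ± 0.11 and 2.13 ± 0.11 on the log2 scale in hypoxic vehicle against normoxic vehicle. The keratin genes KRT8 and KRT18 of epithelial cells averaged 12.73 and 12.24 log2 intensity in hypoxic vehicle, against 13.27 and 12.97 in normoxic vehicle. Over 10 epithelial and A549 genes the summed intensity was 28108 to 30426 with BB2-125, 20717 to 25856 with BB2-162, 19352 to 21914 with BB2-282, 22179 to 24195 in hypoxic vehicle and 44098 to 49307 in normoxic vehicle. The fibroblast genes DCN, LUM and PDGFRA and the leukocyte genes PTPRC, FCGR3A and LYZ were too dim to be tested. The summed intensity of 6 genes each stayed low on every array, between 371 and 508 for fibroblast, 181 and 250 for leukocyte and 294 and 464 for endothelial genes, with the highest sum of each on a BB2-162 array. CDKN2A lay above the 25th percentile, at mean log2 intensities of 6.42, 6.72 and 6.35 with BB2-125, BB2-162 and BB2-282, 6.17 in hypoxic vehicle and 5.88 in normoxic vehicle. Signal above that percentile is therefore no proof of a transcript.

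BB2-162 replicate 1 stood apart from the other arrays. Its root mean square deviation from its group mean was 0.221 on the log2 scale over all tested genes, against 0.094 to 0.163 for the other 14 arrays. Over the 30 tested members it was 0.292, and this array was the highest of its 3 in 23 of the 30. The members most affected were RRM2B, with log2 intensities of 8.61, 7.69 and 7.44 in the 3 BB2-162 cultures, MDM2, with 9.69, 8.85 and 8.72, and CCNG1, with 10.83, 10.13 and 9.86. Results that rest on BB2-162 are given with and without this array where the call differs. The cause of this difference was not tested.

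**Figure D1:**
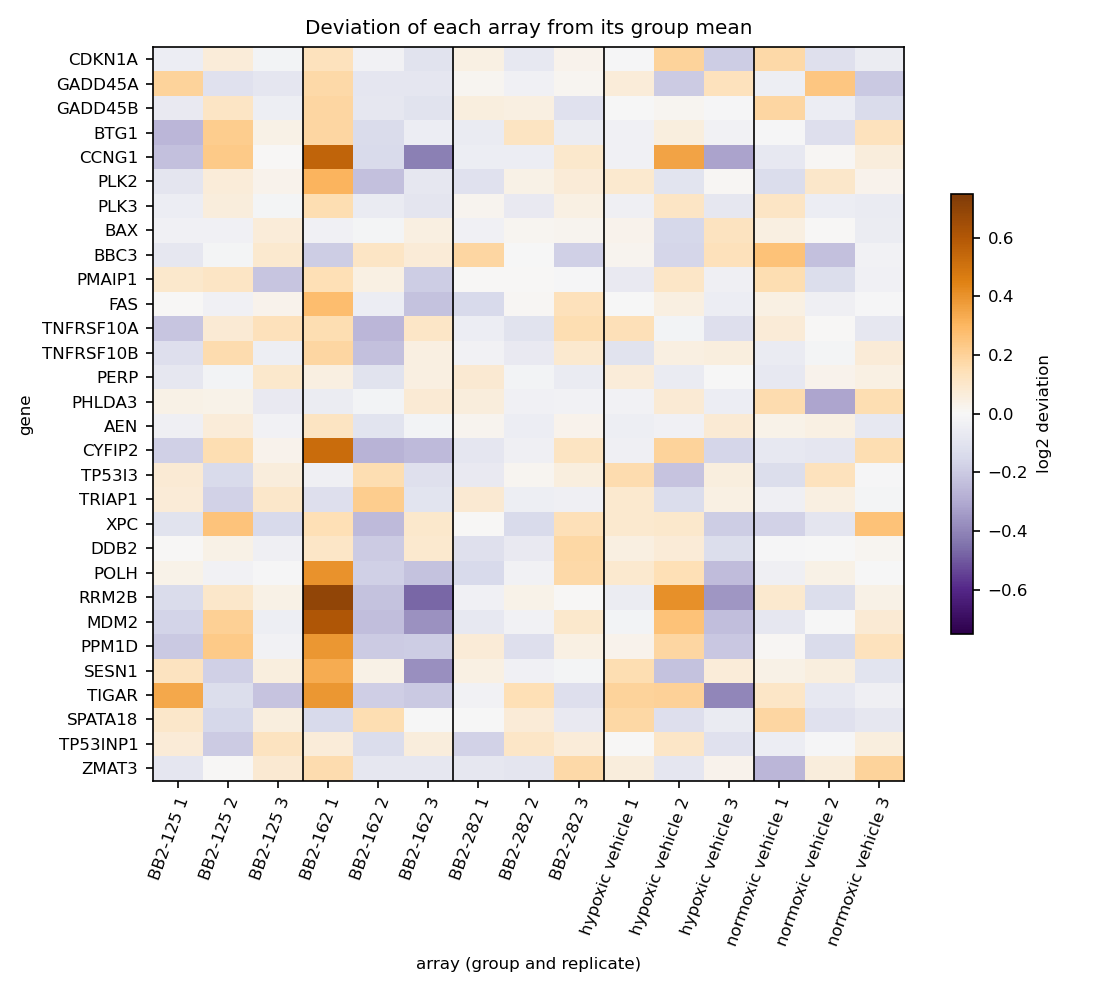
Deviation of each array from the mean of its own group (log2 intensity, colour) for the 30 tested p53 target genes (rows) in the 15 arrays (columns, named by group and replicate, vertical lines between groups). The column of BB2-162 replicate 1 is the most coloured, with a root mean square deviation of 0.292 over the members.

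Hypoxia without compound was set against normoxia first, since all compounds were given in hypoxia. In hypoxic vehicle 21 of the 30 tested p53 targets were called higher and 4 lower than in normoxic vehicle, where called means an adjusted p under 0.05 in limma, the linear model fitted to all 16005 genes. Over all genes, 28.2% were called higher and 29.4% lower, so most of the transcriptome moved and a single member's call carries little weight. The median log2 change was 0.47 over the members and 0.09 over all genes. The largest rises were in GADD45B, BTG1, TNFRSF10B, CDKN1A and AEN, each over 3-fold, and the largest fall was in TIGAR.

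Cell cycle arrest genes were called higher in all 7 tested. GADD45B, a stress sensor that binds cell cycle and kinase proteins, had log2 intensities of 9.82, 9.84 and 9.81 in hypoxic vehicle, against 7.64, 7.41 and 7.32 in normoxic vehicle. The groups did not overlap, and the change was 2.37 ± 0.11 (SE, 3 arrays in each group), or 5.16-fold (adjusted p = 1.53e-12). For no comparison was the share of all genes without overlap counted, so a lack of overlap here and below only describes the values. BTG1, an antiproliferative cofactor of mRNA decay and transcription, measured 12.86, 12.95 and 12.87 in hypoxic vehicle and 10.85, 10.73 and 10.98 in normoxic vehicle. Its change of 2.04 ± 0.12 was 4.11-fold (adjusted p = 6.82e-11). CDKN1A, which encodes the cyclin-dependent kinase inhibitor p21 and is the classical arrest gene of p53, measured 9.97, 10.18 and 9.79 in hypoxic vehicle and 8.36, 8.06 and 8.12 in normoxic vehicle. All 3 hypoxic cultures were thus well above all 3 normoxic ones, a change of 1.80 ± 0.11 or 3.48-fold (adjusted p = 1.15e-10). GADD45A, which promotes arrest and repair after DNA damage, measured 7.81, 7.55 and 7.87 in hypoxic vehicle and 6.81, 7.10 and 6.65 in normoxic vehicle, a change of 0.89 ± 0.13 (adjusted p = 7.05e-06). Smaller rises were called for CCNG1, which encodes cyclin G1 (0.69 ± 0.19), and for the polo-like kinase genes PLK2 (0.38 ± 0.12) and PLK3 (0.35 ± 0.10).

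Of the 12 apoptosis genes, 9 were called higher and 3 lower. TNFRSF10B, the death receptor DR5 for the ligand TRAIL, had log2 intensities of 10.68, 10.83 and 10.83 in hypoxic vehicle, against 8.83, 8.87 and 8.96 in normoxic vehicle, a rise of 1.89 ± 0.11 or 3.71-fold (adjusted p = 6.3e-11). AEN, an apoptosis-enhancing nuclease, measured 9.65, 9.66 and 9.78 in hypoxic vehicle and 8.08, 8.09 and 7.97 in normoxic vehicle. Both genes had tight replicates, and AEN rose by 1.65 ± 0.09 (adjusted p = 2.09e-11). Smaller rises were called for the other death receptor genes FAS (0.78 ± 0.11) and TNFRSF10A (0.54 ± 0.13). The pro-death members of the BCL2 family were split. BBC3, which encodes PUMA, rose by 0.51 ± 0.13 and BAX, which permeabilises mitochondria, by 0.42 ± 0.09, whereas PMAIP1, which encodes NOXA, was called lower at -0.32 ± 0.11. Rises were also called for PHLDA3, an inhibitor of AKT (0.41 ± 0.11), PERP, a membrane protein of desmosomes (0.40 ± 0.09), and TRIAP1, which restrains apoptosis (0.30 ± 0.11). The falls were in TP53I3, a quinone oxidoreductase gene (-0.71 ± 0.11), and CYFIP2, a regulator of actin assembly (-0.70 ± 0.17).

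The repair genes were mixed. DDB2, which recognises ultraviolet damage in nucleotide excision repair, measured 10.12, 10.14 and 9.94 in hypoxic vehicle and 9.08, 9.08 and 9.11 in normoxic vehicle, a rise of 0.98 ± 0.11 (adjusted p = 2.18e-07). POLH, a polymerase that copies past ultraviolet lesions, rose by 0.66 ± 0.14. XPC, the other damage sensor, and RRM2B, a ribonucleotide reductase subunit, were not called, with 95% intervals of the change of -0.52 to 0.08 and -0.26 to 0.66. Neither feedback gene was called. MDM2, the ubiquitin ligase that removes p53, had log2 intensities of 9.69, 9.98 and 9.48 in hypoxic vehicle, against 9.48, 9.55 and 9.64 in normoxic vehicle, and the groups overlapped. Its change was 0.16 ± 0.19 with an interval of -0.24 to 0.55, and that of PPM1D, a phosphatase that switches off p53 and its kinases, was -0.21 ± 0.15 with an interval of -0.53 to 0.11.

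Metabolism and the remaining members held the largest fall. TIGAR, which lowers glycolytic flux and protects against oxidants, had log2 intensities of 6.25, 6.25 and 5.65 in hypoxic vehicle, against 7.80, 7.62 and 7.65 in normoxic vehicle. Every hypoxic culture was lower, by -1.64 ± 0.18 on average or 3.12-fold (adjusted p = 2.73e-07). SESN1, a sestrin that inhibits mTORC1 and limits oxidants, measured 7.07, 6.70 and 6.99 in hypoxic vehicle and 5.88, 5.90 and 5.75 in normoxic vehicle, a rise of 1.07 ± 0.14 (adjusted p = 3.72e-06). SPATA18, a factor of mitochondrial quality control, rose by 0.85 ± 0.12, and TP53INP1, which takes part in autophagy and p53 phosphorylation, was not called (0.06 ± 0.11, interval -0.17 to 0.29). ZMAT3, an RNA-binding regulator of splicing, measured 8.74, 8.60 and 8.71 in hypoxic vehicle and 7.07, 7.39 and 7.53 in normoxic vehicle, a rise of 1.35 ± 0.12 (adjusted p = 1.47e-08). Of the 25 calls, 22 held under each of 15 alternatives of processing and left-out arrays. The calls of PLK2 (adjusted p = 0.0612 and 0.0546), PMAIP1 (0.111 and 0.0801) and TRIAP1 (0.0708 and 0.101) ended without normoxic vehicle replicate 1 and without hypoxic vehicle replicate 1, those of PMAIP1 (0.0686) and TRIAP1 (0.0811) also without hypoxic vehicle replicate 3, that of TRIAP1 (0.0675) without normoxic vehicle replicate 3, and that of PMAIP1 (0.06) after quantile normalization.

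**Figure D2:**
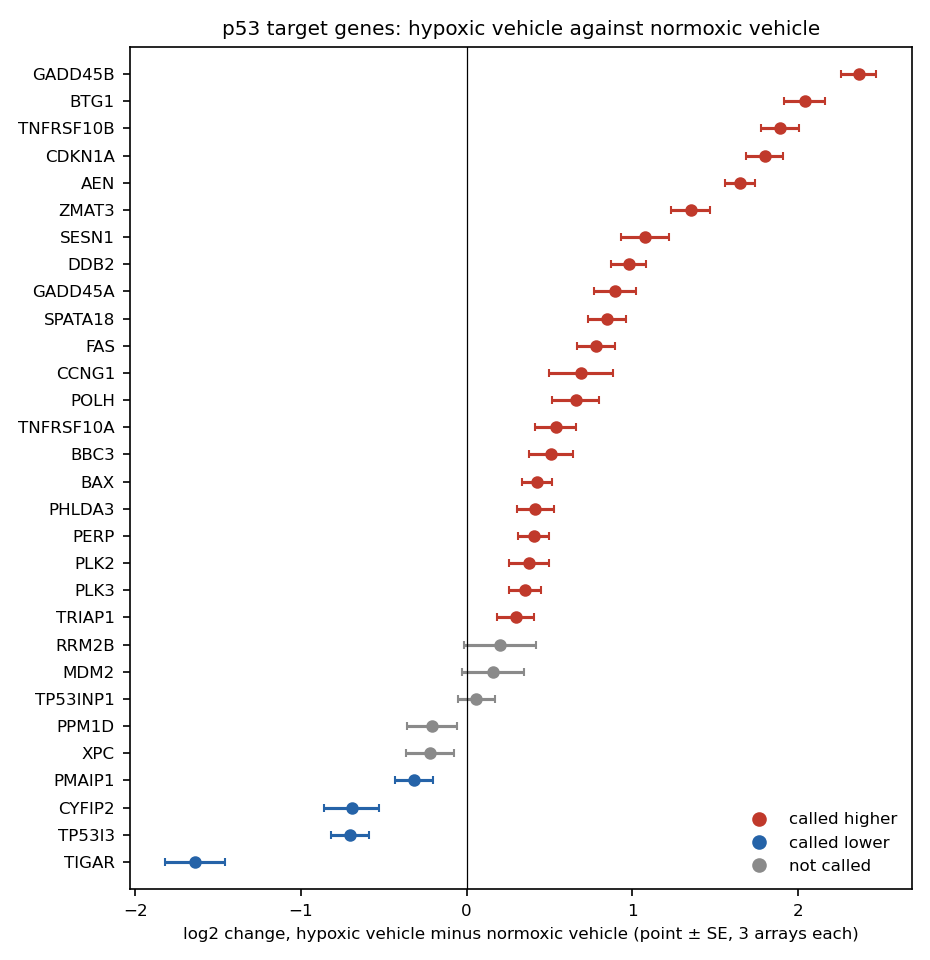
Log2 change in hypoxic vehicle minus normoxic vehicle (x axis; point ± SE, 3 arrays in each group) for the 30 tested p53 target genes, sorted by size; red marks genes called higher, blue called lower and grey not called. The change runs between -1.64 for TIGAR and 2.37 for GADD45B.

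Other genes of the p53 pathway were read from textbook lists. Of 17 tested regulators of p53, 2 were called higher and 6 lower in hypoxic vehicle. The 4 with the lowest p were PPP1R13L (2.35 ± 0.10), which encodes the p53 inhibitor iASPP, and the DNA damage kinase genes PRKDC (-2.10 ± 0.18), ATR (-1.54 ± 0.13) and CHEK1 (-2.01 ± 0.18). MDM4, the partner of MDM2, changed by 0.03 ± 0.17 and was not called. Of 28 other tested p53 targets, 18 were called higher and 4 lower, with a median change of 0.47. They included GDF15, a stress cytokine (2.14 ± 0.11), TNFRSF10D, a decoy receptor for TRAIL (1.95 ± 0.11), and IGFBP3, which binds insulin-like growth factors (1.66 ± 0.13). KITLG, the ligand of the receptor KIT, fell to dim signal in hypoxic vehicle, so its change of -2.11 is given with the bound of -1.51 that the filter level allows. Of 10 epithelial and A549 genes, 2 were called higher and 7 lower in the same comparison, 1 of 6 endothelial genes was called higher (CDH5), and 0 of 3 tested fibroblast and 0 of 3 tested leukocyte genes were called. The part of a change in epithelial character in the members' changes was not tested.

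Promoter sequences of the members were read from RefSeq on GRCh38.p14, as the 250 bases before each start that had a window. For AEN, FAS and CDKN1A the annotated gene began further upstream, and no window covered that start. They are shown for 3 members whose window holds the consensus half-site of p53 (AEN, FAS and PLK2) and for 3 others that stood out in hypoxia (CDKN1A, GADD45B and TIGAR), so that the letters can be read beside the changes. Capitals mark the p53 half-site, and, in all but AEN, the core of the HIF response element, ACGTG or GCGTG on either strand. The sites were searched on both strands and may overlap each other. The windows are AEN at chr15:88621090-88621339 (plus strand), FAS at chr10:88991181-88991430 (plus strand), PLK2 at chr5:58460087-58460336 (minus strand), CDKN1A at chr6:36678464-36678713 (plus strand), GADD45B at chr19:2475877-2476126 (plus strand) and TIGAR at chr12:4320963-4321212 (plus strand).
AEN: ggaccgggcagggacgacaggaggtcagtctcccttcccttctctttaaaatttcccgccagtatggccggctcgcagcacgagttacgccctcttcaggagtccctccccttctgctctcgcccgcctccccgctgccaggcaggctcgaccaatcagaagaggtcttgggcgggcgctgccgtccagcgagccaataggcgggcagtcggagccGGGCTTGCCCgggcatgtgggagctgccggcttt
FAS: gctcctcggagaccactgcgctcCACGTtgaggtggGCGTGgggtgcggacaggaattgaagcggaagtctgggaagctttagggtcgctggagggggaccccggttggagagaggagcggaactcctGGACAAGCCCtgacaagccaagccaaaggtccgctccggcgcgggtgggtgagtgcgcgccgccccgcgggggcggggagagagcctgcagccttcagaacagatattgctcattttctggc
PLK2: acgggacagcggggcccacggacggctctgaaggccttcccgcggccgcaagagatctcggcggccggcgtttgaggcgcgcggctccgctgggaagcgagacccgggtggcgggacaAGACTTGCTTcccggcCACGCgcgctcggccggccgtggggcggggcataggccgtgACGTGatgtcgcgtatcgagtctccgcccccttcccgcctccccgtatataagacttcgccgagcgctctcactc
CDKN1A: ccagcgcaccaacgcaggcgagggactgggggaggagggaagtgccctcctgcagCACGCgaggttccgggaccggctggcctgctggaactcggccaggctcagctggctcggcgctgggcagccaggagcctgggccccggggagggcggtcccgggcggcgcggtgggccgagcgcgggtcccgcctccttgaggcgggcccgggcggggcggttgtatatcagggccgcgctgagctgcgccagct
GADD45B: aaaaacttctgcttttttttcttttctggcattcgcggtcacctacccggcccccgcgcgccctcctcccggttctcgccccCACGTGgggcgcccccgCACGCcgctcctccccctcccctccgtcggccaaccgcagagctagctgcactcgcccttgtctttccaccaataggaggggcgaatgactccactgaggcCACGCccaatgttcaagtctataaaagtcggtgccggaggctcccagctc
TIGAR: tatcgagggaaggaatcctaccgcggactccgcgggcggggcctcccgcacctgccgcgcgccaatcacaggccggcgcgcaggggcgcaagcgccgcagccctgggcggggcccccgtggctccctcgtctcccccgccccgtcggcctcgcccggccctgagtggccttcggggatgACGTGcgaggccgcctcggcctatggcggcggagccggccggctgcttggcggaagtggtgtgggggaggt

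RefSeq windows were found for 27 of the 33 members, 40 windows in all. The p53 half-site was in 6 of the 40 windows (15%), 1 in each of 6 genes, and in 5.57% of all 35116 windows; besides those shown they were windows of SESN1, ABCA12 and FDXR. The HIF core was in 20 of the 40 (50%), against 43.2% of all windows. Windows of a gene can overlap, as for CCNG1 and MDM2, so the same site can count in 2 windows. By gene the HIF core was in 18 of 27, and the share of all genes was not counted. Among the windows shown, TIGAR, which fell in hypoxia, and CDKN1A and GADD45B, which rose, each hold a HIF core. These genes were picked apart from those shown for a half-site, so its absence from their windows was set by that choice. Bases outside the windows were not searched, and a link between the sites and the changes was not tested. A match describes letters in a window and is no evidence of a bound site. Windows of GADD45A, TP53INP1, RRM2B, PHLDA3, TNFRSF10A and TNFRSF10B are not shown.

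BB2-125 in hypoxia was set against the hypoxic vehicle. With BB2-125, 12 of 30 p53 targets were called higher and 6 lower, against 13.3% and 15% of all genes. The median change was 0.10 over the members and 0.02 over all genes. The largest rises were in GADD45A, PMAIP1 and TRIAP1, and the largest falls in TNFRSF10A and DDB2. CDKN1A was not called and changed by -0.11 ± 0.11 (interval -0.35 to 0.12).

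Among the arrest genes, GADD45A had log2 intensities of 9.35, 9.05 and 9.07 with BB2-125, against 7.81, 7.55 and 7.87 in hypoxic vehicle. It rose by 1.41 ± 0.13, or 2.66-fold (adjusted p = 1.57e-07). PLK2, a kinase of centriole duplication and stress responses, measured 10.47, 10.63 and 10.58 with BB2-125 and 10.00, 9.81 and 9.92 in hypoxic vehicle, a rise of 0.65 ± 0.12 (adjusted p = 0.000489). These 2 genes and GADD45B (0.43 ± 0.11) and PLK3 (0.36 ± 0.10) were higher in every BB2-125 culture than in any hypoxic vehicle culture. BTG1 went the other way, with 11.97, 12.45 and 12.27 for BB2-125 and 12.86, 12.95 and 12.87 for hypoxic vehicle, a change of -0.67 ± 0.12 (adjusted p = 0.00035). CCNG1 was not called (0.12 ± 0.19).

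Of the 12 apoptosis genes 4 were called higher and 3 lower. PMAIP1 had log2 intensities of 8.56, 8.58 and 8.25 with BB2-125, against 7.08, 7.26 and 7.11 in hypoxic vehicle, a rise of 1.32 ± 0.11 or 2.49-fold (adjusted p = 1.08e-07). TRIAP1 measured 9.79, 9.55 and 9.82 with BB2-125 and 8.85, 8.63 and 8.80 in hypoxic vehicle, a rise of 0.96 ± 0.11 (adjusted p = 2.79e-06). TRIAP1 restrains and PMAIP1 promotes mitochondrial death, and both were higher in every BB2-125 culture. The receptor gene TNFRSF10A, which encodes DR4, measured 6.97, 7.26 and 7.32 with BB2-125 and 8.29, 8.12 and 8.02 in hypoxic vehicle. Its change was -0.96 ± 0.13, or 1.94-fold lower (adjusted p = 1.24e-05), below even the normoxic vehicle cultures at 7.68, 7.61 and 7.53. TNFRSF10B fell by 0.40 ± 0.11 and PERP by 0.37 ± 0.09, whereas FAS changed by 0.02 ± 0.11 and was not called. TP53I3 (0.51 ± 0.11) and BAX (0.25 ± 0.09) were called higher. BBC3 (0.15 ± 0.13), PHLDA3 (-0.07 ± 0.11), AEN (-0.06 ± 0.09) and CYFIP2 (0.34 ± 0.17) were not called.

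In repair, DDB2 had log2 intensities of 9.24, 9.28 and 9.20 with BB2-125, against 10.12, 10.14 and 9.94 in hypoxic vehicle, a change of -0.83 ± 0.11 (adjusted p = 9e-06). All 3 BB2-125 cultures lay above the normoxic vehicle at 9.08, 9.08 and 9.11, by 0.15 on the log2 scale, which was not called, and with quantile normalization by 0.26, which was (adjusted p = 0.0288). XPC (-0.28 ± 0.14), POLH (-0.37 ± 0.14) and RRM2B (0.09 ± 0.22) were not called. Of the feedback genes, PPM1D measured 8.08, 8.51 and 8.25 with BB2-125 and 7.79, 7.94 and 7.55 in hypoxic vehicle, a rise of 0.52 ± 0.15 (adjusted p = 0.0141). MDM2 changed by -0.41 ± 0.19 and was not called (adjusted p = 0.12). With array weights, which called 22 members, MDM2 (0.0127), XPC (0.0306) and POLH (0.00265) were called lower and CYFIP2 (0.0119) higher.

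All 4 tested metabolism genes were called. TIGAR had log2 intensities of 7.21, 6.74 and 6.65 with BB2-125, against 6.25, 6.25 and 5.65 in hypoxic vehicle, a rise of 0.82 ± 0.18 (adjusted p = 0.00187). SESN1 measured 7.78, 7.47 and 7.71 with BB2-125 and 7.07, 6.70 and 6.99 in hypoxic vehicle, a rise of 0.73 ± 0.14 (adjusted p = 0.000714). In hypoxic vehicle against normoxic vehicle, which shares the hypoxic vehicle arrays, the changes were -1.64 for TIGAR and 1.07 for SESN1. TP53INP1 rose by 0.32 ± 0.11 and SPATA18 fell by 0.50 ± 0.12. ZMAT3 changed by -0.01 ± 0.12 and was not called.

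Of the 18 calls with BB2-125, 14 held under each of 15 alternatives. In the fit of the 2 groups alone those of BAX (adjusted p = 0.096) and TP53INP1 (0.0586) ended and POLH was called lower (0.0346). That of BAX also ended with no filter (0.0502). The call of BAX ended without hypoxic vehicle replicates 1 (adjusted p = 0.0756) or 2 (0.23) or BB2-125 replicates 1 (0.0726), 2 (0.0729) or 3 (0.16), and also with the replicate number as a block (0.0532), median centring (0.0548) or quantile normalization (0.173), that of TP53INP1 without hypoxic vehicle replicates 1 (0.0776) or 3 (0.132) or BB2-125 replicates 1 (0.116) or 3 (0.158) and with median centring (0.0724), that of PPM1D without hypoxic vehicle replicate 3 (0.0753) or BB2-125 replicate 2 (0.0821), that of TNFRSF10B without BB2-125 replicate 1 (0.0561), and POLH was called lower without hypoxic vehicle replicate 3 (0.0222). Of the 17 regulators, 2 were called higher and 5 lower, led by PPP1R13L (-0.90 ± 0.10), the deacetylase gene SIRT1 (-0.56 ± 0.10), CHEK1 (0.95 ± 0.18) and the ubiquitin ligase gene RCHY1 (0.65 ± 0.12), and MDM4 was not called (0.42 ± 0.17, adjusted p = 0.0738). Of the 28 other targets, 4 were called higher and 6 lower, led by GDF15 (0.91 ± 0.11), the stress factor gene ATF3 (1.45 ± 0.18), TNFRSF10D (-0.79 ± 0.11) and the helicase gene ASCC3 (-0.74 ± 0.13). VEGFA and SLC2A1 changed by -0.87 ± 0.11 and -0.52 ± 0.11, both called lower. Of the markers, 3 of 10 epithelial and A549 genes, 1 of 3 leukocyte genes (CD3E), 0 of 3 fibroblast genes and 0 of 6 endothelial genes were called, all 4 calls higher, and their part in these changes was not tested.

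**Figure D3:**
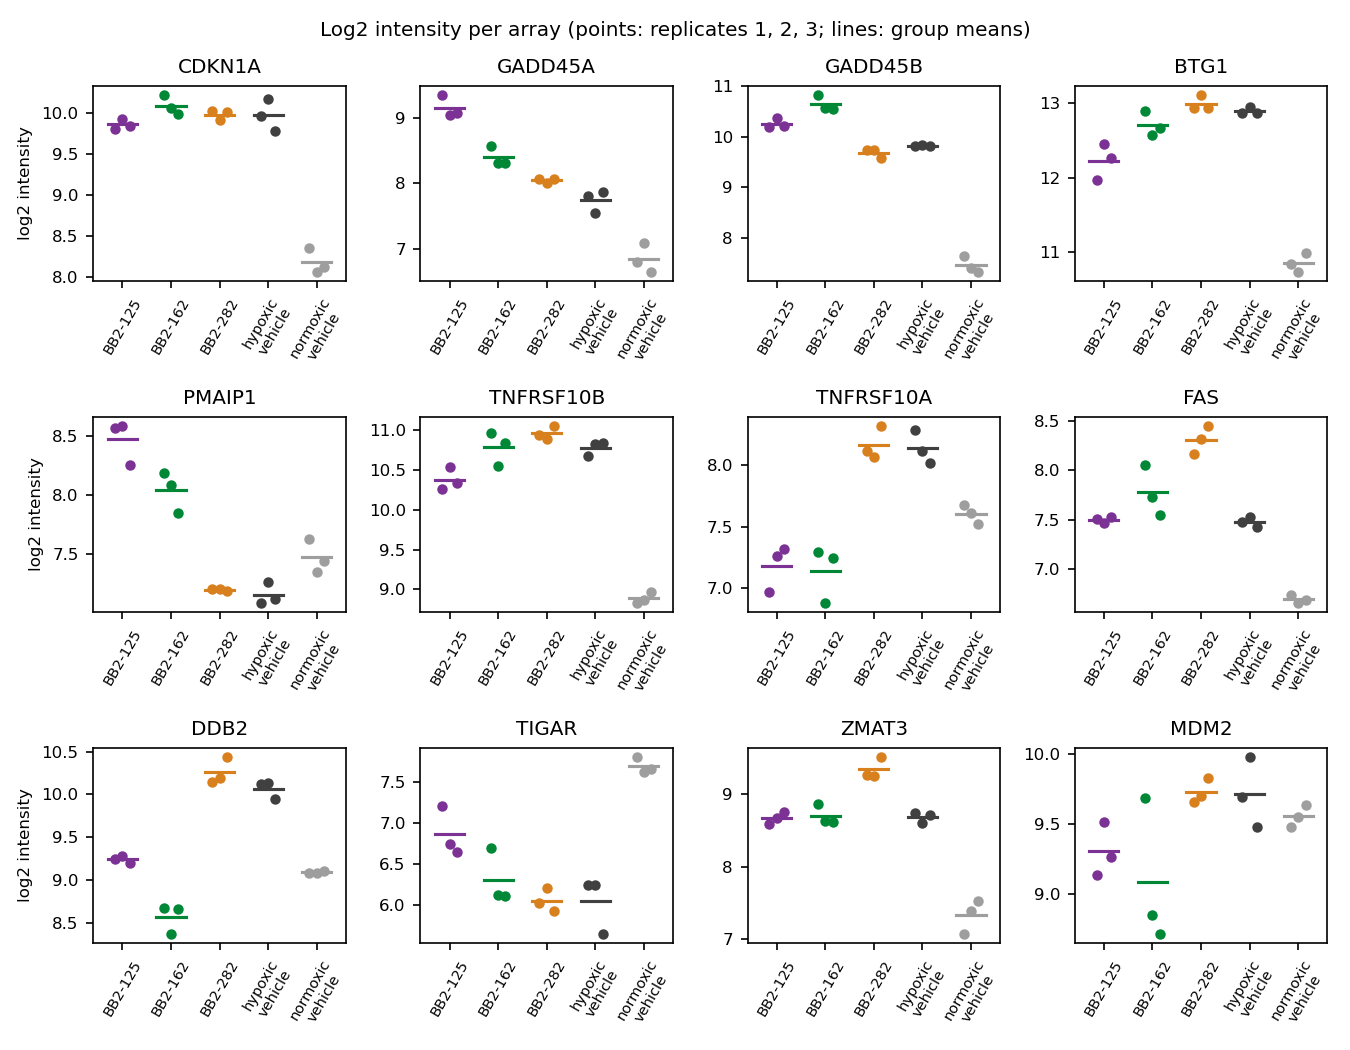
Log2 intensity (y axis, 1 scale per panel) of 12 p53 target genes in the 15 arrays, by group (x axis); points are replicates 1, 2 and 3, placed left to right within a group, and lines are group means. GADD45A and PMAIP1 are highest with BB2-125, FAS and ZMAT3 with BB2-282, DDB2 is lowest with BB2-162, and CDKN1A is lowest in normoxic vehicle.

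BB2-162 in hypoxia was set against the same hypoxic vehicle arrays. Of the 30 p53 targets, 6 were called higher and 9 lower, where 15.7% and 20.4% of all genes were. The median change was 0.08 over the members and 0.06 over all genes. Over all genes 43.4% of the calls were higher, 28.2% after each array was centred on its median and 43.4% after quantile normalization. With quantile normalization 8 members were called higher and 9 lower, with calls gained for PLK2 (adjusted p = 0.0134 in limma) and AEN (0.0136). The largest changes were falls of DDB2, TNFRSF10A and POLH, and rises of PMAIP1 and GADD45B.

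Of 4 repair genes 3 were called, each lower. DDB2 had log2 intensities of 8.67, 8.37 and 8.66 with BB2-162, against 10.12, 10.14 and 9.94 in hypoxic vehicle, a change of -1.50 ± 0.11 or 2.83-fold lower (adjusted p = 1.23e-08). These cultures were also below normoxic vehicle, by -0.52 on the log2 scale. POLH measured 7.33, 6.75 and 6.71 with BB2-162 and 7.93, 7.99 and 7.60 in hypoxic vehicle, a change of -0.91 ± 0.14 (adjusted p = 8.43e-05). XPC measured 6.19, 5.79 and 6.13 with BB2-162 and 6.84, 6.84 and 6.56 in hypoxic vehicle, a change of -0.71 ± 0.14 (adjusted p = 0.000924). RRM2B was not called with all arrays (-0.51 ± 0.22, adjusted p = 0.0756) and was called lower without BB2-162 replicate 1 (-0.85, adjusted p = 0.000411) or hypoxic vehicle replicate 3 (0.0281).

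Apoptosis genes had 3 calls in each direction. PMAIP1 had log2 intensities of 8.18, 8.08 and 7.85 with BB2-162, against 7.08, 7.26 and 7.11 in hypoxic vehicle, a rise of 0.89 ± 0.11 (adjusted p = 1.12e-05). TNFRSF10A measured 7.30, 6.88 and 7.25 with BB2-162 and 8.29, 8.12 and 8.02 in hypoxic vehicle, with means of 7.14 and 8.14 and an SE of 0.13 for the difference (adjusted p = 8.31e-06). With BB2-125, set against the same hypoxic vehicle arrays, the changes were 1.32 for PMAIP1 and -0.96 for TNFRSF10A. CYFIP2 measured 7.85, 7.05 and 7.07 with BB2-162 and 8.07, 8.30 and 7.94 in hypoxic vehicle, a change of -0.78 ± 0.17 (adjusted p = 0.00165). Of the BB2-162 cultures, replicate 1 lay nearest to the hypoxic vehicle values. BBC3 rose by 0.46 ± 0.13 and FAS by 0.30 ± 0.11, and PERP fell by 0.43 ± 0.09. TNFRSF10B (0.00 ± 0.11), BAX (0.16 ± 0.09), PHLDA3 (0.10 ± 0.11), AEN (0.18 ± 0.09), TP53I3 (0.05 ± 0.11) and TRIAP1 (0.16 ± 0.11) were not called.

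Of the arrest genes, GADD45B had log2 intensities of 10.83, 10.57 and 10.54 with BB2-162, against 9.82, 9.84 and 9.81 in hypoxic vehicle, a rise of 0.82 ± 0.11 or 1.77-fold (adjusted p = 1.2e-05). GADD45A measured 8.57, 8.32 and 8.32 with BB2-162 and 7.81, 7.55 and 7.87 in hypoxic vehicle, a rise of 0.66 ± 0.13 (adjusted p = 0.000598). Both genes were higher in every BB2-162 culture than in any hypoxic vehicle culture, and PLK3 rose too (0.44 ± 0.10). CCNG1 was called lower at -0.69 ± 0.19, although BB2-162 at 10.83, 10.13 and 9.86 overlapped hypoxic vehicle at 10.93, 11.32 and 10.64. CDKN1A (0.12 ± 0.11), BTG1 (-0.18 ± 0.12) and PLK2 (0.28 ± 0.12) were not called.

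MDM2 was called lower with BB2-162 at -0.63 ± 0.19 (adjusted p = 0.0148), with 9.69, 8.85 and 8.72 for BB2-162 and 9.69, 9.98 and 9.48 for hypoxic vehicle. The groups overlapped through BB2-162 replicate 1, and without it the other 2 cultures lay below all vehicle cultures. PPM1D was not called (0.27 ± 0.15). SPATA18 measured 6.23, 6.54 and 6.37 with BB2-162 and 7.36, 7.06 and 7.12 in hypoxic vehicle, a change of -0.80 ± 0.12 (adjusted p = 3.85e-05). SESN1 (0.21 ± 0.14), TIGAR (0.26 ± 0.18), TP53INP1 (0.05 ± 0.11) and ZMAT3 (0.02 ± 0.12) were not called.

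Of the 15 calls with BB2-162, 11 held under each of 15 alternatives. That of FAS ended without hypoxic vehicle replicates 1 (adjusted p = 0.101), 2 (0.0766) or 3 (0.102) or BB2-162 replicates 1 (0.193) or 2 (0.0714). It also ended with median centring (0.18), array weights (0.107), no filter (0.0522), the replicate block (0.0618) and the fit of the 2 groups alone (0.148). The call of MDM2 ended without hypoxic vehicle replicate 2 (0.0809) or BB2-162 replicates 2 (0.0742) or 3 (0.0972). That of CCNG1 ended without hypoxic vehicle replicate 2 (0.0717) or BB2-162 replicate 3 (0.0779). In the fit of the 2 groups alone the calls of MDM2 (0.0708) and CCNG1 (0.0563) ended too. BBC3 lost its call without hypoxic vehicle replicate 2 (0.0672) or BB2-162 replicate 2 (0.0543). PLK2 was called higher without BB2-162 replicate 2 (0.0259) and SESN1 without BB2-162 replicate 3 (0.0364). Of the 17 regulators, 5 were called higher and 4 lower, led by PPP1R13L (-0.74 ± 0.10), the kinase gene ATM (-1.13 ± 0.17), TP53BP2 (0.83 ± 0.13) and RCHY1 (0.64 ± 0.12), and MDM4 was not called (0.38 ± 0.17). The 5 rises include CDKN2A (0.55 ± 0.15), the gene that A549 is known to lack, and the part that background signal had in it was not tested. The 25th percentile itself averaged 4.84 log2 intensity on the BB2-162 arrays and 4.70 on the hypoxic vehicle arrays. Of the 28 other targets, 12 were called higher and 6 lower, led by TNFRSF10D (-1.10 ± 0.11), ASCC3 (-1.07 ± 0.13), PRDM1, which encodes a transcriptional repressor (0.84 ± 0.11), and ATF3 (1.41 ± 0.18). VEGFA (-0.06 ± 0.11) and SLC2A1 (-0.21 ± 0.11) were not called. Of the markers, 1 of 10 epithelial and A549 genes was called higher and 5 lower, and 1 of 3 fibroblast, 2 of 3 leukocyte and 1 of 6 endothelial genes were called higher, at mean log2 intensities up to 7.85 for COL1A1, and their part in these changes was not tested.

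BB2-282 in hypoxia gave the fewest calls of the 3 compounds, both among the p53 targets and over all genes. Against hypoxic vehicle 13.3% of the tested members and 13.6% of all genes were called. Over all genes the calls numbered 2176, against 4539 with BB2-125 and 5780 with BB2-162. Of the 30 members 4 were called higher and 0 lower, where 5.65% and 7.94% of all genes were. The median change was 0.10 over the members and 0.02 over all genes. At an unadjusted p under 0.05 in limma the counts were 8 higher and 1 lower. With array weights 7 were called higher and 2 lower. The gained calls were PERP (adjusted p = 0.031), PLK3 (0.0396) and PHLDA3 (0.0481), higher, and CCNG1 (0.0037) and PLK2 (0.0484), lower. PERP was also called higher with quantile normalization (0.0142) and with a filter at the 50th percentile (0.0468). CCNG1 was also called lower in a fit of the 2 groups alone (0.0358). FAS, the receptor for FAS ligand, had log2 intensities of 8.16, 8.32 and 8.45 with BB2-282, against 7.48, 7.53 and 7.43 in hypoxic vehicle. It rose by 0.83 ± 0.11, or 1.78-fold (adjusted p = 8.74e-05). ZMAT3 measured 9.26, 9.25 and 9.51 with BB2-282 and 8.74, 8.60 and 8.71 in hypoxic vehicle, a rise of 0.66 ± 0.12 (adjusted p = 0.00112). TP53INP1 measured 7.51, 7.79 and 7.75 with BB2-282 and 7.16, 7.27 and 7.05 in hypoxic vehicle, a rise of 0.52 ± 0.11 (adjusted p = 0.00384). These 3 calls held under each of 15 alternatives.

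BAX measured 10.30, 10.35 and 10.36 with BB2-282 and 10.04, 9.86 and 10.14 in hypoxic vehicle, a rise of 0.32 ± 0.09 (adjusted p = 0.0248). Its call ended without hypoxic vehicle replicates 1 (0.0643) or 2 (0.142) or BB2-282 replicates 1 (0.0565), 2 (0.0852) or 3 (0.0778), and CCNG1, whose arrays did not overlap (-0.53 ± 0.19, adjusted p = 0.082), was called lower without hypoxic vehicle replicate 3 (0.0295). The interval of the change was -0.23 to 0.24 for CDKN1A, -0.38 to 0.41 for MDM2, -0.20 to 0.28 for PMAIP1, -0.24 to 0.29 for TNFRSF10A and -0.37 to 0.39 for TIGAR. GADD45A (0.30 ± 0.13), GADD45B (-0.15 ± 0.11), PLK2 (-0.22 ± 0.12), PLK3 (0.23 ± 0.10), TNFRSF10B (0.18 ± 0.11), PERP (0.27 ± 0.09), PHLDA3 (0.26 ± 0.11), DDB2 (0.19 ± 0.11) and SESN1 (0.27 ± 0.14) had groups that did not overlap and were not called. The share of all genes whose groups did not overlap was not counted, so the lack of overlap adds nothing to these results. The other members not called had changes between -0.16 for PPM1D and 0.27 for BBC3.

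Of the 17 regulators, 2 were called with BB2-282, both higher: PPP1R13L (0.68 ± 0.10) and TP53BP2 (0.49 ± 0.13), which encodes a p53-binding cofactor of apoptosis. MDM4 changed by -0.15 ± 0.17. Of the 28 other targets, 7 were called higher and 2 lower, led by DRAM1, a lysosomal autophagy gene (0.87 ± 0.11), SUSD6 (0.61 ± 0.10), PRDM1 (0.66 ± 0.11) and IGFBP3 (-0.64 ± 0.13). VEGFA (0.13 ± 0.11) and SLC2A1 (-0.05 ± 0.11) were not called. Of the markers, 3 of 10 epithelial and A549 genes were called lower, 1 of 3 fibroblast genes was called higher, and 0 of 3 leukocyte and 0 of 6 endothelial genes were called, and their part was not tested.

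**Figure D4:**
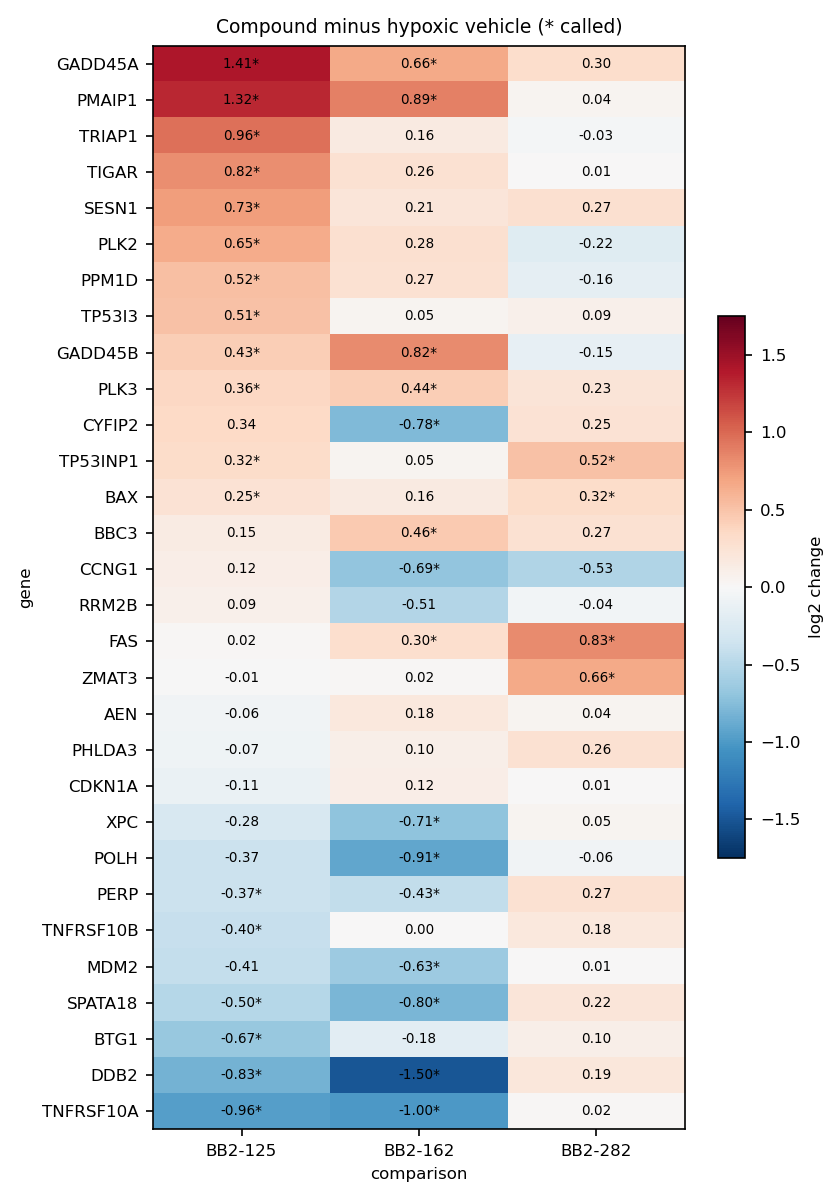
Log2 change of each compound minus hypoxic vehicle (columns; colour and printed value) for the 30 tested p53 target genes (rows, sorted by the change with BB2-125), 3 arrays in each group; an asterisk marks a call. DDB2 with BB2-162 (-1.50) and GADD45A with BB2-125 (1.41) are the extremes, and BB2-282 has 4 calls.

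The compounds were then compared with each other at the same dose and times, in 3 pairs, with p-values adjusted over all genes within each pair. BB2-125 differed from BB2-162 in 15 members, 12 higher and 3 lower, where 16.7% and 9.43% of all genes were. Of all calls, 63.9% were higher, 74.4% after median centring and 59.4% after quantile normalization. The largest difference was in CYFIP2, with log2 intensities of 8.27, 8.60 and 8.47 for BB2-125 and 7.85, 7.05 and 7.07 for BB2-162, or 1.12 ± 0.17 (adjusted p = 0.000103). The 6 differences that held under each of 15 alternatives were CYFIP2, CCNG1 (0.81 ± 0.19), TRIAP1 (0.80 ± 0.11), GADD45A (0.76 ± 0.13), DDB2 (0.67 ± 0.11) and TP53I3 (0.46 ± 0.11), all higher with BB2-125. TRIAP1 measured 9.79, 9.55 and 9.82 with BB2-125 and 8.80, 9.14 and 8.82 with BB2-162, without overlap.

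With all arrays the other 9 calls of this pair were TIGAR (0.56 ± 0.18), POLH (0.54 ± 0.14), SESN1 (0.53 ± 0.14), PMAIP1 (0.43 ± 0.11), XPC (0.43 ± 0.14) and PLK2 (0.37 ± 0.12), higher with BB2-125, and BTG1 (-0.48 ± 0.12), TNFRSF10B (-0.41 ± 0.11) and GADD45B (-0.39 ± 0.11), lower with it. Each ended without 1 or more single arrays, as given next by the change and adjusted p without that array. Without BB2-125 replicate 1 those of GADD45B (-0.35, adjusted p = 0.0527), BTG1 (-0.35, 0.0508), TNFRSF10B (-0.35, 0.0638), SESN1 (0.46, 0.0562) and TIGAR (0.38, 0.165) ended, without BB2-162 replicate 3 those of PMAIP1 (0.34, 0.0651), POLH (0.43, 0.064), SESN1 (0.34, 0.0859), TIGAR (0.45, 0.135), PLK2 (0.33, 0.119) and XPC (0.47, 0.0549), without BB2-162 replicate 2 those of PLK2 (0.25, 0.163), XPC (0.30, 0.165) and TIGAR (0.46, 0.111), without BB2-125 replicate 2 those of PLK2 (0.33, 0.0955) and XPC (0.30, 0.162), and without BB2-125 replicate 3 that of PLK2 (0.35, 0.0852). With quantile normalization the call of PLK2 ended (0.22, 0.142) and calls were gained for CDKN1A (-0.33, 0.0235), AEN (-0.36, 0.00532), SPATA18 (0.36, 0.0223) and RRM2B (0.59, 0.049). Without BB2-162 replicate 1, the array that stood apart, calls were gained for RRM2B (0.94, adjusted p = 0.000256), MDM2 (0.52, 0.00689), PPM1D (0.45, 0.0155) and BBC3 (-0.40, 0.0301). Calls were also gained for TP53INP1 (0.37, 0.0308) and SPATA18 (0.37, 0.0445) without BB2-125 replicate 2, for AEN (-0.29, 0.0439) and SPATA18 (0.0426) without BB2-162 replicate 2, and for FAS (-0.39, 0.0255) without BB2-162 replicate 3. Members not called with narrow intervals were PERP (-0.13 to 0.25), TNFRSF10A (-0.22 to 0.30), ZMAT3 (-0.28 to 0.22) and PLK3 (-0.28 to 0.12). With all arrays and no further normalization CDKN1A differed by -0.23 (interval -0.46 to 0.01).

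BB2-125 differed from BB2-282 in 19 members, 10 higher and 9 lower, where 18.7% and 17.6% of all genes were. PMAIP1, with 8.56, 8.58 and 8.25 for BB2-125 and 7.20, 7.20 and 7.18 for BB2-282, differed by 1.27 ± 0.11 (adjusted p = 9e-08), and GADD45A by 1.11 ± 0.13. TRIAP1 (0.99 ± 0.11), PLK2 (0.86 ± 0.12), TIGAR (0.81 ± 0.18), PPM1D (0.68 ± 0.15), CCNG1 (0.66 ± 0.19), GADD45B (0.58 ± 0.11), SESN1 (0.46 ± 0.14) and TP53I3 (0.41 ± 0.11) were also higher with BB2-125. DDB2, with 9.24, 9.28 and 9.20 for BB2-125 and 10.15, 10.20 and 10.44 for BB2-282, differed by -1.02 ± 0.11 (adjusted p = 4.71e-07). The death receptor genes were lower with BB2-125 in all 3: TNFRSF10A by -0.98 ± 0.13, FAS by -0.81 ± 0.11 and TNFRSF10B by -0.58 ± 0.11. BTG1 (-0.76 ± 0.12), SPATA18 (-0.72 ± 0.12), ZMAT3 (-0.67 ± 0.12), PERP (-0.64 ± 0.09) and PHLDA3 (-0.33 ± 0.11) were lower too. The calls of SESN1 without BB2-125 replicates 1 (adjusted p = 0.0757) or 3 (0.0587) or BB2-282 replicate 2 (0.0539), of CCNG1 without BB2-125 replicate 2 (0.0635) and of PHLDA3 without BB2-125 replicate 3 (0.0946) or BB2-282 replicates 1 (0.0889), 2 (0.0527) or 3 (0.0527) ended, and XPC was called lower without BB2-125 replicate 2 (0.024). MDM2, with 9.14, 9.52 and 9.27 for BB2-125 and 9.66, 9.70 and 9.83 for BB2-282, did not overlap and was not called (-0.42, interval -0.82 to -0.03), but was called lower with quantile normalization (-0.47, adjusted p = 0.0339), array weights (0.00388) and a fit of the 2 groups alone (0.00859). POLH and XPC were called lower with array weights (0.00916 and 0.0204) and in the fit of the 2 groups alone (0.0238 and 0.0469). Intervals of other members not called included -0.35 to 0.12 for CDKN1A, -0.26 to 0.12 for BAX and -0.29 to 0.09 for AEN.

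BB2-162 differed from BB2-282 in 16 members, 5 higher and 11 lower, where 15.6% and 20.3% of all genes were. After median centring the members split into 3 higher and 12 lower, and 32.9% of all calls were higher, against 43.4% before. After quantile normalization the split was 6 higher and 12 lower, and 43.2% of all calls were higher. DDB2 differed most, with 8.67, 8.37 and 8.66 for BB2-162 and 10.15, 10.20 and 10.44 for BB2-282, or -1.69 ± 0.11 (adjusted p = 1.86e-09), a 3.24-fold difference. CYFIP2 (-1.03 ± 0.17), TNFRSF10A (-1.02 ± 0.13), SPATA18 (-1.02 ± 0.12), POLH (-0.85 ± 0.14), XPC (-0.76 ± 0.14), PERP (-0.70 ± 0.09), ZMAT3 (-0.64 ± 0.12), FAS (-0.53 ± 0.11) and TP53INP1 (-0.47 ± 0.11) were also lower with BB2-162 and held under each alternative. GADD45B (0.97 ± 0.11), PMAIP1 (0.84 ± 0.11) and PLK2 (0.50 ± 0.12) were higher with BB2-162 and held likewise. The calls of GADD45A (0.36 ± 0.13) and PPM1D (0.43 ± 0.15) ended without BB2-162 replicate 1 (adjusted p = 0.104 and 0.163) and without BB2-282 replicates 1 (0.0669 and 0.0519), 2 (0.0959 and 0.125) or 3 (0.0742 and 0.0664) and with median centring (0.0997 and 0.0982), and that of MDM2 (-0.64 ± 0.19) without BB2-162 replicates 2 (0.0661) or 3 (0.0813), while without BB2-162 replicate 1 calls were gained for RRM2B (-0.81, adjusted p = 0.000607), BTG1 (0.0235) and CCNG1 (0.039). The call of PPM1D also ended in the fit of the 2 groups alone (adjusted p = 0.0658). CDKN1A differed by 0.11 ± 0.11 (interval -0.13 to 0.34), and AEN by 0.14 (interval -0.05 to 0.33).

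**Figure D5:**
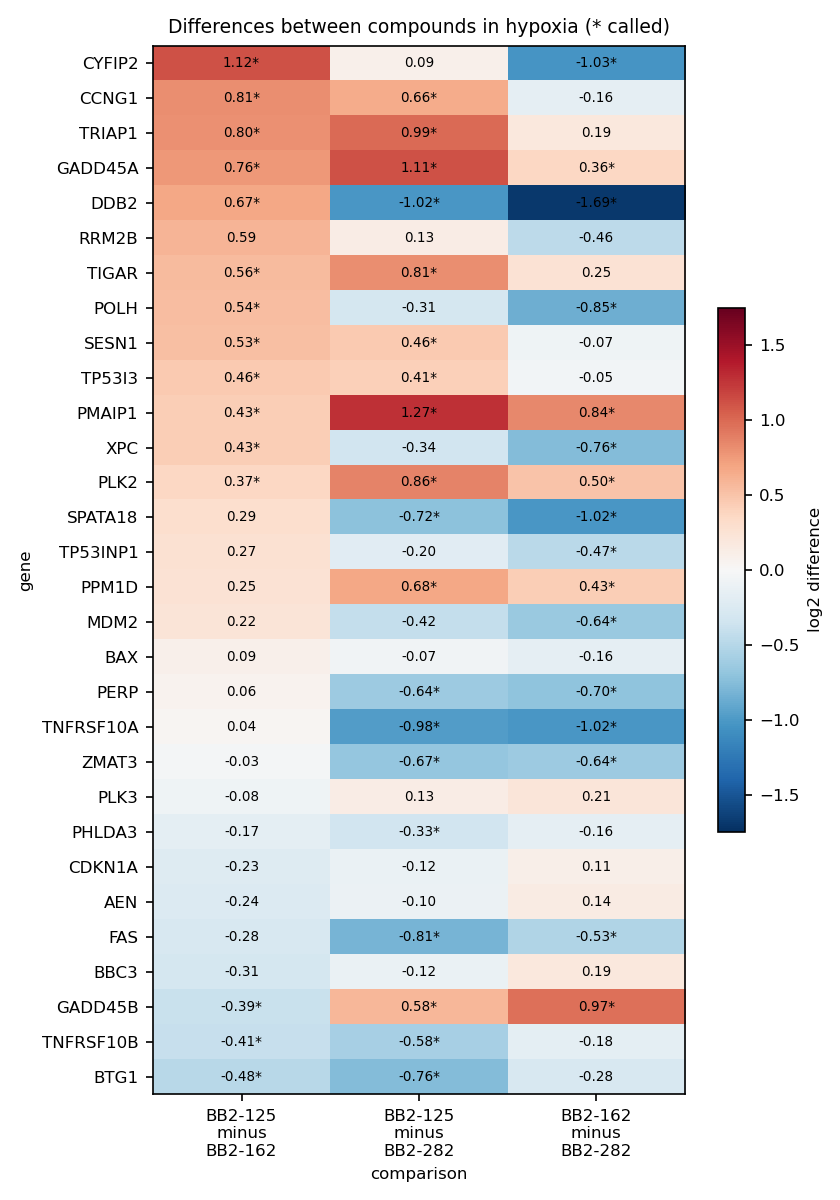
Log2 difference between compounds in hypoxia (columns, the first-named compound minus the second; colour and printed value) for the 30 tested p53 target genes (rows, sorted by BB2-125 minus BB2-162), 3 arrays in each group; an asterisk marks a call. DDB2 is called in each of the 3 columns, at 0.67, -1.02 and -1.69, and CDKN1A in none.

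Each compound in hypoxia was last set against normoxic vehicle. With BB2-125 19 members were called higher and 3 lower, where 31.5% and 30.5% of all genes were. With BB2-162 16 were higher and 7 lower (42.4% and 34.4% of all genes), and with BB2-282 20 were higher and 5 lower (33.4% and 31.4%), or 21 and 2 after quantile normalization. For BB2-162 the median change of all genes was 0.139, with 0.0279 after median centring and 0.0777 after quantile normalization. The values given next are not corrected for that shift. CDKN1A was 1.69, 1.91 and 1.81 higher with BB2-125, BB2-162 and BB2-282 on the log2 scale, GADD45B 2.80, 3.19 and 2.22 higher, and AEN 1.59, 1.84 and 1.70 higher. TNFRSF10A was lower than in normoxia with BB2-125 (-0.42) and BB2-162 (-0.46) and higher with BB2-282 (0.56). TIGAR was lower with each (-0.82, -1.38 and -1.63). Of these calls 20 of 22, 22 of 23 and 21 of 25 held under each of 15 alternatives. The call of PHLDA3 with BB2-125 ended without normoxic vehicle replicate 2 (adjusted p = 0.116). SPATA18 lost its call with BB2-125 without normoxic vehicle replicates 2 or 3 or BB2-125 replicates 1 or 3 (0.0568 to 0.0716). That of MDM2 with BB2-162 ended without normoxic vehicle replicates 2 or 3 or BB2-162 replicates 2 or 3 (0.0619 to 0.186). It also ended with quantile normalization (0.122) and in the fit of the 2 groups alone (0.0543). With BB2-282 the call of CYFIP2 ended without normoxic vehicle replicate 3 or BB2-282 replicates 1 or 2. That of TRIAP1 ended without any of the 6 arrays. Those of PMAIP1 and PPM1D ended without any of the 6 but normoxic vehicle replicate 2 (0.0559 to 0.173 over these genes). Quantile normalization also ended the calls of CYFIP2 (0.115), PMAIP1 (0.0965) and PPM1D (0.135), and median centring that of TRIAP1 (0.0891). POLH (-0.46, 0.00216) and RRM2B (-0.65, 0.00132) were called lower with BB2-162 without its replicate 1, and PPM1D was called higher with BB2-125 without its replicate 1 (0.0413). These comparisons share the normoxic vehicle arrays with each other and the compound arrays with the comparisons above.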

How the data were processed

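RNA of 15 A549 cultures was measured on Affymetrix whole-transcript arrays. The deposited values are linear intensities, summarised per probe set by the authors with RMA, per the submitters' processing notes. The software, its version and the annotation build are not given in the sources used here. Of 28869 probe sets, 21062 had an annotated symbol, of which 19310 had a single one and 1752 several; the 7807 without one were left out. Probe sets with several symbols were used for no gene. The 18377 genes included 685 with more than 1 probe set, of which the brightest on average was taken.

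Intensities were changed to log2 here and fitted with limma 3.58.1 in R 4.3.3, with 1 mean per group over all 5 groups (residual df 10, prior df 7.96) and Benjamini-Hochberg adjustment over 16005 genes. A gene was tested if it exceeded the 25th percentile of the array, between 4.57 and 4.90 log2 intensity, on at least 3 arrays, which removed 2372 genes. The threshold was an adjusted p of 0.05. Tables were handled in Python 3.11.15 with pandas 2.3.3, and figures drawn with matplotlib 3.10.9. The fit was tested on simulated data.

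All member genes are named; for each comparison up to 10 called members with the largest change have the value of every array. Other pathway genes are described by counts, with up to 4 of lowest p named, and MDM4 always. Lists were p53 regulators (19 genes), other p53 targets (33), epithelial and A549 (10), fibroblast (6), leukocyte (7) and endothelial genes (6), and VEGFA with SLC2A1. The members, lists and tests were chosen with earlier results of these data known. Replicate numbers were checked for pairing: all same-numbered deviations correlated above 0.1 for BB2-125 with hypoxic vehicle (0.189 to 0.328) and for none of the other 9 comparisons. Alternatives were median centring, quantile normalization, no filter or a stricter one, the mean of a gene's probe sets, an intensity trend, array weights, the replicate block, a fit of the 2 groups alone, and leaving out each array.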

Additional observations from a re-analysis of the deposited data

How the results depend on the processing

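Over the 10 comparisons and 15 alternatives each, 4287 gene-level results kept their side of the threshold, 136 lost a call and 77 gained one. Among results called before or after, 0 reversed in direction. Direction was not compared for results called in neither fit. Each tested member had 1 probe set, so taking the mean of probe sets could not change a member's value. No filter, the stricter filter, the intensity trend, the replicate block and the fit of the 2 groups alone do not alter the log2 change. A reversal was therefore possible only under the other alternatives. Member calls under the replicate block numbered 17 for BB2-125 against hypoxic vehicle (without BAX), 14 for BB2-162 against hypoxic vehicle (without FAS), 23 for BB2-282 against normoxic vehicle (without TRIAP1 and PPM1D) and 14 for BB2-125 against BB2-162 (without XPC); the block changed no other call. Outside the first of these, same-numbered deviations did not all correlate above 0.1. The labels do not say whether same-numbered cultures shared more than a number. With array weights 9 members were called for BB2-282 against hypoxic vehicle, against 4 without weights, and 4193 genes in all, against 2176. Fitting BB2-125 and BB2-162 alone called 8 members, against 15, and 2582 genes, against 4182, and fitting BB2-162 and hypoxic vehicle alone called 3494 genes, against 5780. The same alternative gained calls elsewhere: 22 members, against 19, for BB2-125 against BB2-282 (6656 genes, against 5813), and 26 members, against 22, for BB2-125 against normoxic vehicle (10437 genes, against 9916). Leaving out single arrays gave 22 to 25 member calls for hypoxia, 15 to 17, 11 to 15 and 3 to 5 for BB2-125, BB2-162 and BB2-282 against hypoxic vehicle, 20 to 22, 22 to 25 and 21 to 24 for them against normoxic vehicle, and 10 to 19 (BB2-125 against BB2-162), 17 to 19 (BB2-125 against BB2-282) and 14 to 17 (BB2-162 against BB2-282). The genes called for BB2-282 against hypoxic vehicle numbered 1222, 1352 and 1258 without hypoxic vehicle replicates 1 and 2 and BB2-282 replicate 2, and those for BB2-125 against BB2-162 numbered 2645 without BB2-162 replicate 3. The causes were not tested. The 3 arrays of each group limit precision, and dim signal limits ABCA12.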
